A study of Mus musculus with 6 samples.

Results

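Intronic peaks of BAZ2A that lie in repeat sequence were examined. The members were peaks longer than 18 nt whose midpoint fell inside the gene named in the peak list but in no exon of it. At least 50% of their bases were soft-masked, the lower-case marking by which the mm10 (GRCm38) genome sequence flags repeats, and they overlapped no snoRNA, scaRNA or snRNA gene on either strand. Of 3127 peaks in the list, 502 met this rule, in 463 genes. They were set against 777 intronic peaks with less masked sequence, called unique below, and 1475 exonic peaks. They were also set against 9908 tiles, peak-free stretches of the same length as a member and at least 50% soft-masked, taken from the introns of the same gene.

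BAZ2A (TIP5) is a chromatin protein with an RNA-binding domain, best known as the large subunit of the nucleolar remodelling complex NoRC, which silences ribosomal RNA genes. Introns of mammalian genes are rich in interspersed repeats, copies of mobile elements that include the short B1 elements of rodents, which descend from 7SL RNA, and in tandem repeats, in which a short unit is repeated head to tail. 4.5S RNA is a short nuclear RNA of rodents, made by RNA polymerase III and related in sequence to B1, and the mouse genome holds many copies of such short RNAs.

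The series holds 6 iCLIP libraries, 3 crosslinked and 3 background, from E14 mouse embryonic stem cells (ESCs) in which the endogenous BAZ2A carries Flag and HA tags, grown in N2B27 medium with LIF and 2i. Crosslinked cells were exposed to UV-C light and background cells were not, and BAZ2A was precipitated from nuclei of both with anti-FLAG antibodies; all groups carry the same tags. Each crosslinked sample was mixed with its background sample before sequencing. The authors called a single list of peaks from all libraries, so each value below has no replicate error and no p-value is given, the list gives no depth per library, and intervals cover only the counting of peaks. The score is that of the peak caller omniCLIP, on a scale that is not stated. Of 10 ESC markers, 8 had a peak anywhere in the list, against 0 of 5 fibroblast and 1 of 5 neural markers.

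Several kinds of sequence recurred among the members, and examples of 4 of them are shown first, from the genome, 5′ to 3′. The first resembled 4.5S RNA, and the examples are shown because they include the highest score among the members. The annotated gene Rn4.5s (RefSeq, GRCm38.p6) is given with its first 91 positions in capitals, the stretch later used to search the genome for copies, followed by members in the orientation of the RNA with the aligned stretch in capitals.
Rn4.5s, chr6:47654921-47655094, minus strand: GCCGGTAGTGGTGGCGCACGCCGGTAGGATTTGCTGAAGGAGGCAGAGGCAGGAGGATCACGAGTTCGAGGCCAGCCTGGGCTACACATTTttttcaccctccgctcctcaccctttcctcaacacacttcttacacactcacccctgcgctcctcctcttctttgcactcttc
Sltm, chr9:70554628-70554721, plus strand: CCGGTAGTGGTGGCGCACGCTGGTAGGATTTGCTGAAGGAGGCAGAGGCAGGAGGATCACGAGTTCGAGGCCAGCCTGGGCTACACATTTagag
Erc2, chr14:28145921-28145957, plus strand: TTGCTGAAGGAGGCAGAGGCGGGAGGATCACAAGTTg
Igf2r, chr17:12694204-12694265, minus strand: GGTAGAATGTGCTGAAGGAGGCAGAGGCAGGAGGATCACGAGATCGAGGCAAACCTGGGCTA
Sel1l2, chr2:140376610-140376654, minus strand: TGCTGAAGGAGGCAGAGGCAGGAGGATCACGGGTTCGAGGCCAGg
Tspan5, chr3:138844770-138844796, plus strand: gagtCGGTAGTGGTGGCGCACGCCGGT
Saxo1, chr4:86478551-86478634, minus strand: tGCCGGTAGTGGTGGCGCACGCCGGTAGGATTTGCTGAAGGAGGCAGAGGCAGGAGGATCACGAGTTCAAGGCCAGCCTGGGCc
Dusp16, chr6:134771016-134771064, minus strand: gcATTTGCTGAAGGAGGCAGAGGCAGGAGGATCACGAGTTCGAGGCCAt

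The second recurring sequence matched no annotated structural RNA used here, and it is called the Dock9 group after the member with the highest score. The lines show how alike its members are in extent and in letters, in the orientation of the Dock9 peak, with the stretch that aligned with it in capitals.
Dock9, chr14:121755256-121755302, minus strand: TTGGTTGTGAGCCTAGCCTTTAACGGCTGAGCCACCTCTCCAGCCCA
Ptprj, chr2:90539556-90539602, minus strand: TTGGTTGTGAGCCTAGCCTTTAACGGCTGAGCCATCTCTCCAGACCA
Glg1, chr8:111194992-111195038, minus strand: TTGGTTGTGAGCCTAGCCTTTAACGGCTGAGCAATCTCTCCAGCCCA
Gm20388, chr8:121517849-121517895, plus strand: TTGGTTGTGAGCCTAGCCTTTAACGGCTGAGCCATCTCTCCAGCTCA
Ralgapa2, chr2:146409156-146409202, minus strand: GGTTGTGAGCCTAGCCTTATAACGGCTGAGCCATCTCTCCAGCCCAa
Ctnna3, chr10:63714559-63714604, plus strand: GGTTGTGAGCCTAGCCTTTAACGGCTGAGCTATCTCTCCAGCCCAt
Zbtb8a, chr4:129363201-129363246, minus strand: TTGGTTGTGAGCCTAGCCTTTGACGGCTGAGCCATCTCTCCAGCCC

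The third matched B1-type sequence. Gm22993, a gene annotated as misc_RNA whose sequence is of the B1 type, was the most frequent best match, and it is shown with the positions covered by at least 50% of the highest number of members in capitals. It was chosen after the matches were seen. The members are given in the orientation of Gm22993, with the aligned stretch in capitals, to show that they lie in the later part of the element.
Gm22993, chr11:74618260-74618513, minus strand: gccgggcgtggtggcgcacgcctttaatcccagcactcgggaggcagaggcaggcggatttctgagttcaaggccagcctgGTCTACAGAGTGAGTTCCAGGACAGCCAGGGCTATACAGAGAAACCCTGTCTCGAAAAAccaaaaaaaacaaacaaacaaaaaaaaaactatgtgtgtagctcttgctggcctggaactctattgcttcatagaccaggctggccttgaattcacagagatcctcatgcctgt
Samm50, chr15:84208455-84208524, plus strand: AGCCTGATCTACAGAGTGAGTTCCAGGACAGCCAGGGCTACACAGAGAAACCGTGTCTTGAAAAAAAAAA
Platr21, chrX:139335010-139335108, minus strand: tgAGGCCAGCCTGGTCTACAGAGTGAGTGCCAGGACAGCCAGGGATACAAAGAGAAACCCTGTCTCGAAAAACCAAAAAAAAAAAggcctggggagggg
Aspscr1, chr11:120702909-120702970, plus strand: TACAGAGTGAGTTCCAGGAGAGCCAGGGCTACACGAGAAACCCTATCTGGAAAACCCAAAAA

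The fourth consisted of tandem repeats, shown on the strand of the gene with the runs in capitals because they hold the second highest score among the members.
Prkca, chr11:108112450-108112520, minus strand: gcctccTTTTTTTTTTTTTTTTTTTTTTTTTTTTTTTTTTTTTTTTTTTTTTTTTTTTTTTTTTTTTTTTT
Tlk1, chr2:70781947-70782030, minus strand: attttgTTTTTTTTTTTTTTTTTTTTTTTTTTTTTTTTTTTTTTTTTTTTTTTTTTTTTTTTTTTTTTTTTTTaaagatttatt
Ntm, chr9:29828414-29828466, minus strand: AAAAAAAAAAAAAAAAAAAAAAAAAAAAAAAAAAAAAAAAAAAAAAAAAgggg
Zfp148, chr16:33384222-33384292, plus strand: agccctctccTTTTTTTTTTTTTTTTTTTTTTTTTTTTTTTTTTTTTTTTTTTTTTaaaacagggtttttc
Dlgap1, chr17:70157255-70157330, plus strand: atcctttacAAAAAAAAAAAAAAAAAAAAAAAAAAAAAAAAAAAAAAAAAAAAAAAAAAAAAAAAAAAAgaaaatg

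To describe how often intronic peaks lay in repeats, the masked share of each intronic peak was determined. Among 1279 intronic peaks longer than 18 nt and away from small RNA genes, the 502 members made up 39.2% (Wilson 95% interval 36.6 to 42.0), while 27.0% of the intronic bases of the same 1041 genes were masked. Of exonic peaks, 8.68% (128 of 1475) were masked to the same degree. Peaks fell mostly at the extremes, since 273 members (54.4%) were masked in every base and 533 of the 1279 intronic peaks (41.7%) in none. The limit of 50% passed through a thinly filled range. Just inside it lay peaks of Pole4, Ctbp2, Hsd17b4 and Ahctf1, each 50.0% masked, with scores of 1.76, 3.19, 3.29 and 4.61. Just outside lay peaks of Snx30 (49.5% masked), Map4k1 (49.1%) and Fgd1 (49.0%), with scores of 5.35, 2.88 and 9.10.

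**Figure D1:**
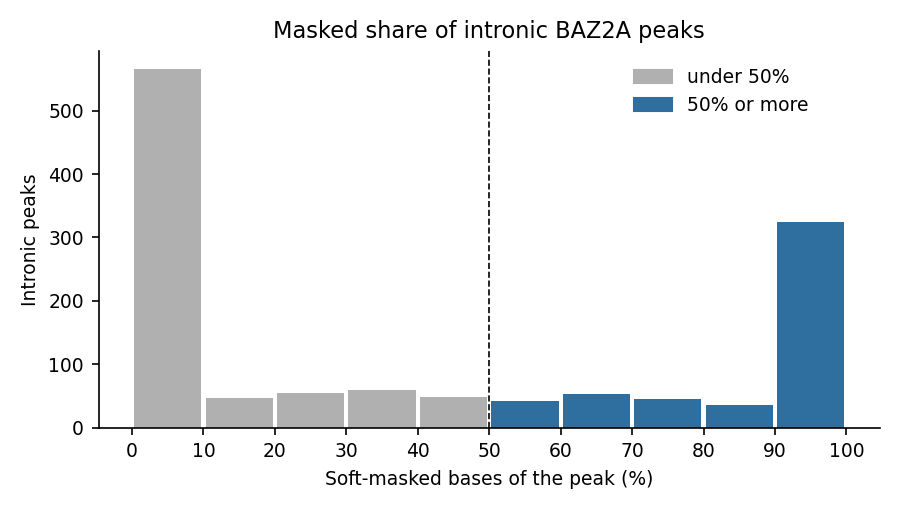
Number of intronic peaks longer than 18 nt and away from small RNA genes (vertical axis) by the percentage of soft-masked bases in steps of 10 points (horizontal axis), with members in blue and the 50% limit as a dashed line. The end bins hold 566 and 325 peaks and no bin between them more than 60.

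The members were spread over 20 chromosomes and 463 genes, 436 of them protein-coding (94.2%). Of these genes, 437 had 1 member. The share of intronic peaks that were members ranged from 24.5% on chromosome 7 to 54.5% on chromosome 3. The median member was shorter than the median unique intronic peak, with 51.0 nt (exact 95% interval of the median 48.0 to 53.0) against 60.0 nt (58.0 to 63.0). Its score was higher, with 4.29 (4.05 to 4.59) against 3.70 (3.58 to 3.83), and below the 4.81 (4.65 to 5.01) of exonic peaks. Score and length went together less closely among members (Spearman's rho 0.41, n = 502 peaks) than among unique intronic peaks (0.73, n = 777), and peaks in the same gene or repeat family are not independent. Of the 100 highest scores of the list, 38 belonged to members, which were 502 of the 3127 peaks. The highest of these, 177 in Sltm, ranked 8. The excess was confined to high scores, since 253 of the 502 members lay in the upper 50% of scores.

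By sequence, the members fell into 5 classes, assigned in a fixed order. A member with at least 50% of its bases in tandem runs of a unit of 1 to 6 nt and a length of at least 12 nt was called tandem, and the others were matched by blastn over at least 50% of their length. There were 98 tandem members (19.5%), 54 that matched 4.5S RNA (10.8%), 124 that matched another annotated structural RNA (24.7%), 29 in the Dock9 group (5.78%) and 197 remaining (39.2%). Under this order of assignment, the small classes had the highest median scores. The 4.5S members had a median score of 12.8 (9.27 to 20.0) and the Dock9 group 10.2 (4.73 to 33.0), against 4.42 (4.02 to 4.95) for tandem members, 4.07 (3.72 to 4.53) for matches to other RNAs and 3.56 (3.29 to 3.85) for the remaining members. Of the 74 members that scored above 10, 31 matched 4.5S RNA and 15 belonged to the Dock9 group. The 54 members matching 4.5S RNA held 29.6% of the summed score of all members and the Dock9 group 13.5%.

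**Figure D2:**
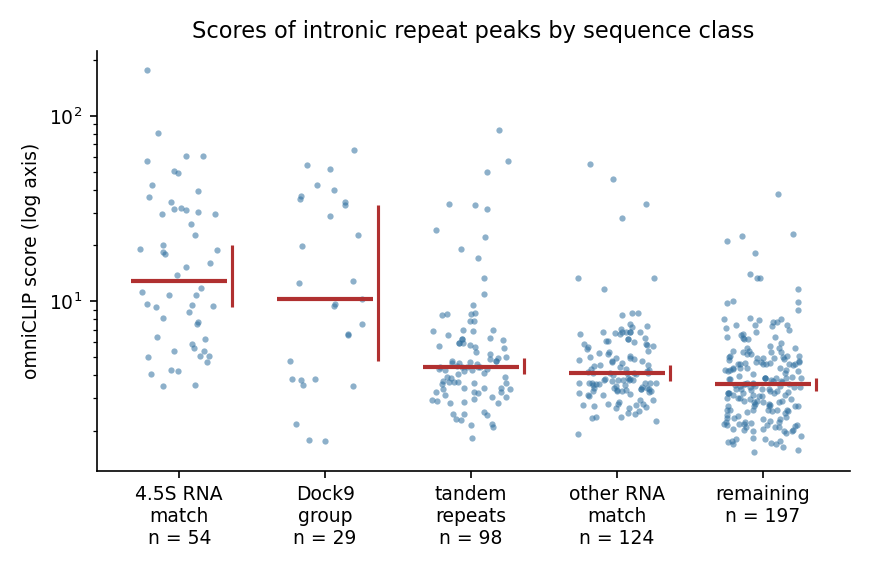
omniCLIP score of each of the 502 members (points, logarithmic vertical axis) by sequence class (horizontal axis, n below each name), with horizontal red lines at the median and vertical red lines for its exact 95% interval. The medians of the 4.5S class (12.8) and the Dock9 group (10.2) lie above those of the other classes (4.42, 4.07 and 3.56).

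Sequences like 4.5S RNA were far more frequent under the members than elsewhere in the repeats of the same introns. The 4.5S RNA was singled out with the matches of members in view, which favours members in the contrasts with tiles. A match was found in 54 of 502 members (10.8%, 8.34 to 13.8) and in 103 of 9908 tiles (1.04%, 0.858 to 1.26), a difference of 9.72 percentage points (Newcombe 95% interval 7.29 to 12.7). Rn4.5s was the best match of 52 of the 54, and the peaks of Mybl2 and Naca were closer to another RNA. Of all peaks in the list, 0 lay on the annotated Rn4.5s gene itself, at chr6:47654921-47655094. The list names each peak by an Ensembl gene, and whether such a gene covers this RefSeq gene was not examined. The 0 therefore does not show that signal was absent there.

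The 54 members, each listed under a gene of its own, stood closer to the annotated RNA than the tiles did. Those of Gm37240 and Fam160a1 overlapped on the same strand and are not separate sites. Their identity over the aligned stretch had a median of 96.2% (95.8 to 97.4) against 86.8% (85.7 to 87.8) in tiles. An identity of 95% or more was reached by 37 members, or 7.37% of all members, and by 3 tiles, or 0.0303% of all tiles (difference 7.34 percentage points, 5.36 to 9.96). Most members were thus close copies, and 6 were identical over the aligned stretch. The score varied widely within the class, with the lowest in Gnpat and the highest, 177, in Sltm. Sltm encodes a nuclear RNA-binding protein related to the scaffold attachment factors, and its peak of 94 nt matched positions 2 to 91 at 98.9% identity. The next were Erc2 with 80.6, which encodes a scaffold of the presynaptic active zone, and Igf2r with 60.8, the receptor that takes up insulin-like growth factor 2. Sel1l2 had a score of 60.3, Taf12, a subunit of the general transcription factor TFIID, 56.9, and the tetraspanin Tspan5 50.6. Neither identity (rho 0.23) nor length (rho 0.01, n = 54 peaks for both) ordered the scores closely.

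Members covered the 4.5S RNA unevenly. Position 50 was covered by 92.6% of the matching members and 97.1% of the matching tiles. Toward the 3′ side the members ended earlier, with 44.4% at position 80 against 87.4% of tiles. Toward the 5′ end they reached further, with 27.8% at position 10 against 1.94%. The tiles therefore matched mainly a middle stretch, while some members, such as those of Tspan5, Saxo1 and Ostf1, held the first positions of the RNA. No member matched beyond position 93 of the 174 annotated positions. The mode, the single position inside each peak that the list marks, fell at a median of position 57.0 (quartiles 46.0 and 62.0) in the 53 members whose mode lay in the aligned stretch.

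**Figure D3:**
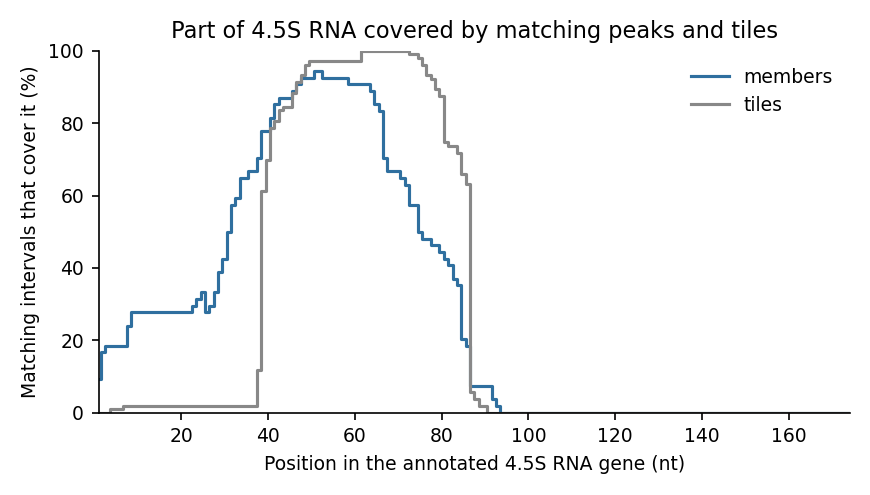
Percentage of the 54 matching members (blue) and 103 matching tiles (grey) that cover each position of the annotated 4.5S RNA gene (horizontal axis, nt from its 5′ end). Members are most frequent at positions 51 and 52 (94.4%), exceed the tiles at position 10 and fall below them at position 80.

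The orientation of the sequence was mixed. In 31 of 54 members (57.4%, 44.2 to 69.7) the 4.5S sequence ran against the direction of the gene and in 23 with it, and tiles gave 59.2% (49.6 to 68.2), a difference of -1.82 points (-17.8 to 13.8). The median score was 15.3 in the opposite orientation and 11.2 in the same. The list gave every one of the 502 members the strand of its gene, so the listed strand does not show on its own from which strand the reads came.

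Seen from the genome, copies with an identity of 85% or more were more often under a peak than those below it. Copies of positions 1 to 91 that were at least 80% complete were collected with blastn and sorted by identity. This stretch was set by the matching members, from their lowest start to near their highest end, and so was chosen with the peaks in view. Of copies within a gene, 10 of 16 at an identity of 95% or more lay under a peak (62.5%, 38.6 to 81.5). The share was 22.7% (10 of 44, 12.8 to 37.0) at 90 to under 95% and 17.9% (7 of 39, 8.98 to 32.7) at 85 to under 90%. Below 85% it was 0.0998% (9 of 9015, 0.0525 to 0.190). This lowest band held far more copies than the others, and the RNA is related in sequence to B1. Whether the copies in this band are B1 elements rather than copies of the RNA was not tested. The step at 85% therefore cannot be read as an effect of identity among copies of the RNA alone. Within genes, the interval of the closest band lay above those of the other bands. Over the whole genome it overlapped the next, with 16.9% (10 of 59, 9.48 to 28.5) against 8.77% (10 of 114, 4.83 to 15.4). The lowest band was again far below, at 0.0596% (9 of 15102, 0.0314 to 0.113). The list names each peak by a gene, and every copy under a peak lay within a gene. The whole genome thus added only copies without a peak, which lowers the shares by construction, so this overlap carries little weight. Restricted to genes with a peak, the shares were 90.9% (10 of 11, 62.3 to 98.4) in the closest band and 76.9% (10 of 13, 49.7 to 91.8) in the next. In the lowest it was 0.433% (9 of 2077, 0.228 to 0.822). A copy under a peak itself makes its gene one with a peak. This restriction therefore drops only copies without a peak and raises the shares by construction. The part of read placement in these shares was not tested.

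**Figure D4:**
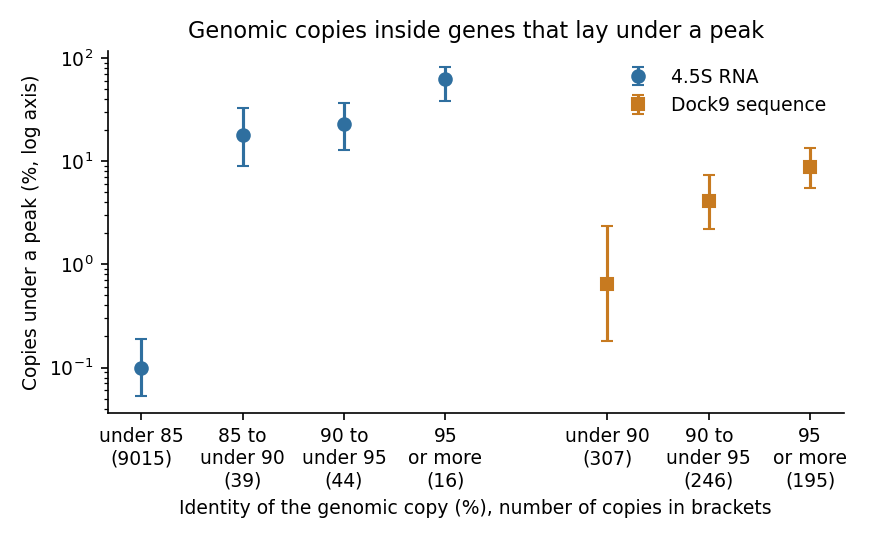
Percentage of genomic copies inside genes that lay under a peak (logarithmic vertical axis) by identity to the first 91 positions of 4.5S RNA (circles) or to the Dock9 sequence of 47 nt (squares), with Wilson 95% intervals and the number of copies in brackets. The share is lowest in the lowest identity band of both sequences, at 0.0998% and 0.651%. The repeat family of the copies in these bands was not determined.

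The Dock9 group was narrow in length and in sequence. Its 29 members lay in 29 genes and at 28 distinct intervals, since Gon4l and Gm43713 shared theirs on opposite strands. The members had a median length of 46.0 nt within a range of 22 to 61 nt, and shared a median of 95.7% identity with the Dock9 peak. Members aligned with the Dock9 peak in 18 cases in the same orientation relative to the gene and in 11 in the opposite. The Dock9 sequence aligned with 30 of 502 members and 3 of 9908 tiles. Since it was itself picked from a group of alike members, this contrast follows from the choice and is given as a description.

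Scores in the group ran from 1.75 to 65.7. Dock9, an exchange factor for the small GTPase Cdc42, was followed by Ptprj, a receptor tyrosine phosphatase, with 54.5, and by the Golgi protein gene Glg1 with 51.8. Prim2, a subunit of DNA primase, had 42.5, the peak in Gm20388 39.9 and Ralgapa2 37.1. At the low end, Gon4l and Gm43713 had 1.78 and 1.75 with peaks of 22 nt. Full-length members also occurred at low scores, such as Erbb4 with 3.54 over 47 nt. Close genomic copies of the Dock9 sequence were more numerous than those of 4.5S RNA and less often under a peak. The searches were unlike, however, with the 47 nt of a peak itself against 91 nt of an annotated RNA. The counts and shares are therefore not directly comparable. Within genes, 17 of 195 copies, the Dock9 peak among them, with an identity of 95% or more lay under one (8.72%, 5.51 to 13.5), 10 of 246 at 90 to under 95% (4.07%, 2.22 to 7.32) and 2 of 307 below 90% (0.651%, 0.179 to 2.34). When all members were grouped by sequence without regard to class, the 29 members joined 14 matches to other RNAs and 3 remaining members, among them Trps1 with a score of 33.4, whose best match was the misc_RNA gene Gm22514. This wider group of 46 had a median score of 6.15. The 54 members matching 4.5S RNA fell into a group of 214 with a median of 5.27. The higher medians of both classes thus depend on how the classes were drawn.

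B1-type sequence was common, and the interval of its median score held the 4.29 of all members. Among the 350 members neither mostly tandem nor matching 4.5S RNA, 86 matched Gm22993 (24.6%, 20.4 to 29.3), compared with 713 of 9147 such tiles (7.79%, 7.26 to 8.36), a difference of 16.8 points (12.5 to 21.6). Gm22993 was picked as the most frequent best match of members, which favours them in this contrast. All 86 had been assigned to the class of other structural RNAs. Their median score was 3.92 (3.57 to 4.76), with a lowest value of 2.26. The highest scores, 13.4 each, were in Platr21 and in Samm50, which encodes a sorting subunit of the mitochondrial outer membrane. Their identity to Gm22993 did not set them apart, with medians of 90.8% in members and 91.2% in tiles.

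The place within the element and its orientation differed from those of the tiles. Members were most frequent at positions 110 to 114 of Gm22993, which 81.4% of them covered against 43.8% of tiles at position 110. At position 30 the order was turned, with 17.4% against 38.0%. In 72 of the 86 members (83.7%, 74.5 to 90.0) the element ran against the direction of the gene, compared with 59.5% (55.8 to 63.0) of tiles, a difference of 24.3 points (14.4 to 31.6). On the strand of the gene, such members are therefore the reverse complement of the letters shown for Gm22993. The 14 members in the same orientation had a median score of 4.56 and the 72 in the opposite 3.83. Some sites were listed under genes on both strands and so entered both orientations. These were the sites of Platr21 and Trap1a, Gm17178 and Aspscr1, AC174471.1 and Dnah8, and Lrrc4 and Snd1. The 86 members lay at 83 distinct intervals when the strand was ignored.

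**Figure D5:**
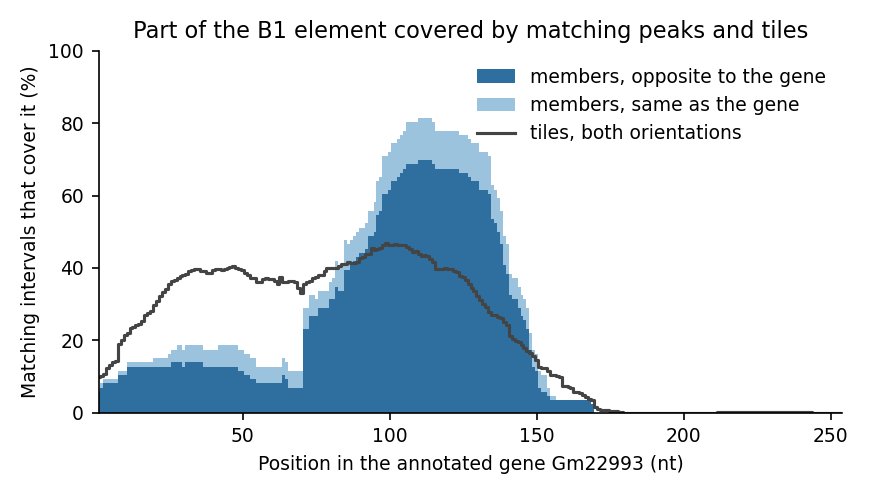
Percentage of the 86 matching members that cover each position of Gm22993 (horizontal axis, nt from its 5′ end), stacked by the orientation of the element relative to the gene (dark blue opposite, light blue same), and of the 713 matching tiles (line). Members peak at positions 110 to 114 (81.4%), most of them in the opposite orientation, and are under the tiles at position 30.

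The best match was sought among all annotated structural RNAs. Of the 124 members of that class, 114 had a misc_RNA as best match, 3 an snRNA, 2 a tRNA and 1 a scaRNA. Only 2 of the 502 members matched 7SL RNA (0.398%, 0.109 to 1.44), against 27 tiles (0.273%, 0.187 to 0.396). A peak in Fmc1, which encodes an assembly factor of the mitochondrial ATP synthase, had a score of 54.6 and lay on the tRNA gene n-TRcct1. The peak of 4930586N03Rik on n-TMcat12 scored 8.59. The sequence of the Fmc1 peak, on the listed strand with the match in capitals, shows that almost the whole peak is tRNA sequence.
Fmc1, chr6:38533965-38534004, plus strand: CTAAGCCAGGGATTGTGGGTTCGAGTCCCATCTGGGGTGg

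Tandem repeats were held by 98 members (19.5%, 16.3 to 23.2), against 6.64% of tiles (6.17 to 7.15). Runs of a single base made up most of them. On the strand of the gene, 36 were runs of T (7.17% of members, 0.242% of tiles) and 24 runs of A (4.78%, 0.101%). GT repeats came next with 15 members (2.99%), closer to the tiles (1.07%), and 17 further units were seen in 1 to 4 members each. The longest run had a median of 41.5 nt in the T members and 40.0 nt in the A members.

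Scores of runs of T had a median of 4.73 and those of A 5.38. The highest belonged to Prkca, which encodes protein kinase C alpha, with 84.1 and a run of 65 T, and to the kinase gene Tlk1 with 56.9 and a run of 67 T. Hdac9, a histone deacetylase gene, had 49.8. Ntm, which encodes the neuronal adhesion protein neurotrimin, held a run of A scoring 33.2 and a run of T scoring 31.5 in a single gene. GT repeats stayed low, with a median of 3.38 and a maximum of 6.21 in Ppfia4.

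The 197 remaining members lay in 186 genes and scored from 1.54 to 37.6, with 9 above 10. Among them, the largest sequence group after that of Dock9 held 12 members made of pyrimidine-rich sequence or its purine-rich complement. Examples are given on their pyrimidine strand, with TCC and CCT in capitals, because these words recur across the members.
Dnah8, chr17:30661130-30661285, plus strand: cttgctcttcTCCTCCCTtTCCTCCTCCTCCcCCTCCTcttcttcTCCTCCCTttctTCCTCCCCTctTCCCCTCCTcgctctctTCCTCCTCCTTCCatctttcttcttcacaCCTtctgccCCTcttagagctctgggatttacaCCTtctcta
Rfx2, chr17:56807559-56807692, minus strand: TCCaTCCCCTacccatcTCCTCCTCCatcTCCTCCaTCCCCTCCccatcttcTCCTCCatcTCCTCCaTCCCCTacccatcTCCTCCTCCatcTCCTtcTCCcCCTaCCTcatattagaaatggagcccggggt
Tenm3, chr8:48597129-48597222, minus strand: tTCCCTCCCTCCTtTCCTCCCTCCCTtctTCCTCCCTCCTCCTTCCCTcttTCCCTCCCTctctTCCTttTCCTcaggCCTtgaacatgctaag
Itsn1, chr16:91824755-91824825, plus strand: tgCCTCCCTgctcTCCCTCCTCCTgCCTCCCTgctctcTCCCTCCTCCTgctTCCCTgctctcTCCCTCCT
Klf12, chr14:100208545-100208615, minus strand: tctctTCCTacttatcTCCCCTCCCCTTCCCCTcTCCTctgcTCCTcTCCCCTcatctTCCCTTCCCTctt

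The group was led by Platr21 with a score of 37.6 over 352 nt, a long non-coding RNA gene where the listed strand held 13.4% pyrimidine. Dnah8, an axonemal dynein, had 7.38, and the transcription factor gene Rfx2 6.66. The adhesion receptor gene Tenm3 had 5.60, the endocytic scaffold gene Itsn1 4.59 and the transcription factor gene Klf12 3.86. Pairs of genes on opposite strands shared intervals here. AC174471.1 and Dnah8 were listed with the same interval at 7.41 and 7.38, and Atp5o and Itsn1 with another at 4.59 each, with the pyrimidine share at 89.1% or 91.5% on one strand and 10.9% or 8.45% on the other.

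Short words were counted on the strand of the gene in members and tiles. Of all 6-mers, CCTCCT gained most, being present in 13.5% of members and 3.31% of tiles (difference 10.2 points, 7.49 to 13.5), followed by TTTTTT with 20.7% and 11.3% and TCCTCC with 12.2% and 3.05%. CTCTGT (13.9% and 5.26%) and CCTGGC (11.6% and 3.06%) completed the first 5. The words were spread unevenly over the classes. TTTTTT was held by 40 remaining members, 39 tandem members and 25 matching other RNAs. CCTCCT was held by 27 of the 54 members matching 4.5S RNA, all 27 with the 4.5S sequence opposite to the gene, and by 30 of the 197 remaining members. CTCTGT was held by 52 of the 124 members matching other RNAs and CCTGGC by 50 of them. Away from the 4.5S, Dock9 and tandem classes, 11.5% of 321 members and 3.28% of tiles held CCTCCT (difference 8.25 points, 5.17 to 12.2). Of the other words counted, CTCCTC was in 5.78% of members and 2.55% of tiles, CCCCTC in 4.38% and 1.93% and TCTCTC in 7.77% and 4.49%. CACACA was less frequent in members than in tiles (1.59% and 5.04%, difference -3.44 points, -4.35 to -1.87). The interval of the difference held 0 for GAGAGA (3.98% and 3.53%), for TGTGTG (6.97% and 7.51%) and for AAAAAA (8.17% and 7.20%).

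Base composition was compared in the same way. Pyrimidines made up 57.4% of the bases of the mean member and 52.4% of its tiles, a difference of 4.99 points (3.15 to 6.84). GC made up 45.9% against 42.4%, a difference of 3.48 points (1.93 to 5.03). Classes moved GC in opposite directions, with a difference of -18.1 points (-22.3 to -13.9) in tandem members and of 17.8 points (16.2 to 19.5) in 4.5S members. The remaining class had the largest pyrimidine difference with an interval above 0, at 7.18 points (4.60 to 9.75), whereas the members matching 4.5S RNA did not differ detectably in pyrimidines (0.202 points, -4.35 to 4.75). At the mode, C was the base of 29.7% of members (25.9 to 33.8), against a mean of 24.2% over the whole peak, and T of 32.3% against 33.2%.

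Whether a short read could be placed at a single site was examined with 24-mers counted over both strands of the genome. Of 485 members long enough, 371 held a 24-mer found once (76.5%, 72.5 to 80.1), against 98.9% of unique intronic peaks. Classes differed widely, with 49.0% of tandem members, 59.3% of the Dock9 group, 71.8% of matches to other RNAs, 81.1% of 4.5S members and 95.6% of the remaining members. No single-copy 24-mer was found in 114 members. Their median score was 4.45, near the 4.29 of the others. Of the members with the highest scores, Sltm, Erc2 and Igf2r held a single-copy 24-mer. The rarest 24-mer of Prkca occurred at 41 sites and that of Dock9 at 2. The median 24-mer of Erc2 and Igf2r was also single-copy, while that of Sltm occurred at many sites. Holding a single-copy 24-mer therefore does not show that all reads of a peak could be placed at a single site.

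Members lay further from exons than unique intronic peaks. The median distance to the nearest exon of the gene was 2520 nt (2074 to 3204), against 1501 nt (1168 to 1699) for unique intronic peaks and 2498 nt for tiles. Only 5 members (0.996%, 0.426 to 2.31) lay within 50 nt of an exon, against 45 unique intronic peaks (5.79%, 4.36 to 7.66) and 2.55% of tiles (2.26 to 2.88). The difference from unique peaks was -4.80 points (-6.75 to -2.85) and that from tiles -1.56 points (-2.22 to -0.211). Along the intron, the median relative place was 0.472 (0.412 to 0.512) for members and 0.448 (0.412 to 0.480) for unique intronic peaks. The median distance was 1532 nt (1029 to 2296) for members matching other RNAs and 4856 nt (2169 to 8750) for those matching 4.5S RNA.

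The gene named in the list was not always the only one at the site. The midpoint of 5 members fell in an exon of another gene on the same strand, namely Rps12-ps9 and Rpl13 in Gm20388, Gtf3c2 in Gm29609, Cd63-ps in Hsd17b4 and Gm37940 in Snd1. A gene on the opposite strand was present at 53 members, and 34 of these (64.2%, 50.7 to 75.7) overlapped a peak listed on that strand, 32 of them with the same start and end. Such pairs entered the counts above under each gene, and 482 intervals were distinct when the strand was ignored.

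The 3 genes with the most members were Gm20388, AC174471.1 and Dnah8. Gm20388, a gene model that spans 4434882 nt at chr8:119910841-124345722, had 11 members, and 4 of these intervals were also listed under Usp10, Ankrd11 or Chmp1a. AC174471.1 had 4 members and Dnah8 3, and they share intervals on opposite strands. Pds5a, a cohesin regulator, also had 3, with scores from 1.71 to 6.94. The other members with the highest score of a sequence group were Rbm10, a splicing regulator, with 14.0 and the kinase gene Slk with 5.18.

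Members in pluripotency and chromatin genes were counted against the genes of the whole list, of which 463 of 2288 held a member (20.2%, 18.6 to 21.9). Of 20 pluripotency genes, 13 had a peak of any kind and 4 a member. Esrrb had members with scores of 4.91 and 2.57, Tfcp2l1 4.80, Prdm14 2.84 and Sall4 2.72, all encoding transcription regulators of naive ESCs. Of 29 Polycomb genes, 11 had a peak and 1 a member, Mtf2 (5.33), an accessory subunit of PRC2. Of 28 nucleosome remodelling genes, 9 had a peak and 3 a member, namely the BAF subunit genes Arid1a (6.27) and Smarcb1 (2.95) and the BAZ2A relative Baz1b (3.75). Basement membrane genes had peaks in 9 of 12 and a member in 0. None of these scores exceeded 10, and Tfcp2l1 and Mtf2 had Gm22993 as best match. The sequences below, on the strand of the gene with masked bases in capitals, show B1-type stretches in Mtf2 and Esrrb and a run of CCT in Arid1a.
Mtf2, chr5:108098312-108098357, plus strand: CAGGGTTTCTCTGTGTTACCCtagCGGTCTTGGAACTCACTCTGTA
Esrrb, chr12:86511465-86511551, plus strand: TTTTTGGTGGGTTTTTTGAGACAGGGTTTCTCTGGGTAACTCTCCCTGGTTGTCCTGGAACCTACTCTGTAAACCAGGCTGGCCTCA
Arid1a, chr4:133753791-133753851, minus strand: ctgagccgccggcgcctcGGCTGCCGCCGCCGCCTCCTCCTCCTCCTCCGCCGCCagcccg
Baz1b, chr5:135228896-135228940, plus strand: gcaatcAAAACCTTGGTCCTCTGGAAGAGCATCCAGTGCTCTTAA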

How the data were processed

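Per the labels and the study's methods, the authors trimmed reads with Flexbar, aligned them to mm10 with STAR 2.6, collapsed duplicates with UMI-tools 0.5.1 and called peaks with omniCLIP at default parameters with an Ensembl annotation. The deposited list holds 1 score per peak, given by the authors' peak caller and pooled over libraries. Groups (3 crosslinked and 3 background samples) were taken from the sample titles. Peaks were placed with GENCODE M21, and sequences were read from the GRCm38.p6 assembly, which has the mm10 chromosomes. Sequences were matched to structural RNAs of GENCODE and RefSeq with blastn 2.17.0 (largest e-value 1e-05, 50% or more of the peak aligned), and members were linked into groups at the same limits. Tiles numbered at most 20 per member, evenly spaced. Tandem runs had a unit of 1 to 6 nt and at least 12 nt. Repeat family names come from general knowledge of these sequences, since no repeat annotation was used. Shares carry Wilson 95% intervals, their differences Newcombe's, and medians exact binomial intervals. All cover counting only, and overlapping or related peaks are not independent. Simulated data were used to check the blastn matching, the tandem runs, the genomic word counts and the Wilson and median intervals. The other steps were not checked in this way. The members and gene lists were chosen with earlier results of these data known. Named items were the 10 members with the highest score, the 3 genes with the most members, the top member of each sequence group of at least 5, members in the gene lists, the 5 6-mers with the largest difference and a fixed list of 6-mers. Any other named item was picked with its values in view. The remaining best matches of the structural RNA class are not reported here. Alternatives took other masking limits, distinct intervals, 1 peak per gene, the 50% of peaks with the highest score, other run lengths, 36-mers and other match limits. Scripts ran on Python 3.11.15 with numba 0.67.0, scipy 1.17.1 and pandas 2.3.3.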

Additional observations from a re-analysis of the deposited data

How the results depend on the processing

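Of 37 values under alternatives to 12 results, 28 stayed within the interval of the value reported or, for the number of members, within 1.5 times of it, 9 moved further, and 0 changed sign. The number of members was 385 with 75% of bases masked and 746 with any base masked. With only the 50% of all peaks with the highest score, there were 253 members, they made up 46.6% of intronic peaks, their median length was 60.0 nt and 19.4% of them matched 4.5S RNA (the last chosen after seeing the data). With 75% of bases masked, the share of intronic peaks was 30.1%. Without mostly tandem members, an alternative also chosen after seeing the data, the GC difference from tiles was 8.72 points. With 36-mers in place of 24-mers, 88.6% held a single-copy word. The share of members matching a structural RNA was 52.4% when 25% of the peak sufficed and 27.1% when 90% was required. No paired analysis was possible because the list pools all libraries, and for the same reason no replicate could be left out. The scale of the score and the depth of each library are not given in the list, so no score could be set against sampling noise.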
